A study of Mus musculus with 67 samples.

Results

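The genes examined encode proteins of the mitochondrial ribosome and of the machinery that brings proteins into mitochondria. They were taken as the probes that the platform annotation pairs with exactly 1 gene symbol starting with Mrpl, Mrps, Timm or Tomm. This gave 38 probes of 35 genes, out of 4875 probes of 4209 genes with 1 symbol, and the probe with the highest mean over all arrays was used for each gene. The other probes of Mrpl45, Mrps17 and Tomm20 are described beside them. The reference gene table holds 104 genes with these prefixes, so the array covers only part of the family.

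The tissue was the cerebral cortex of C57BL/6 mice, and radiolabelled cDNA of 1 mouse was hybridised to each of 67 nylon filters bearing 8448 cDNA probes. Mice fed ad libitum (AL) were 17-21 days (2 males, 3 females) and 33-44 days old (3 males, 2 females), and 6, 16 and 24 months old (169 to 194, 476 to 499 and 704 to 743 days, with 5 of each sex at each age). Mice on caloric restriction (CR), whose fortified feed was reduced in steps below free intake in young adult life, were 6 months (174 to 194 days, 4 males, 5 females), 16 months (472 to 499 days, 5 of each sex) and 24 months old (673 to 743 days, 3 males, all of 673 days, and 5 females). No genotype or agent other than the feed distinguished the mice. The cortex was not divided into cell types, so a signal averages over neurons, glia and vessels, and in such samples fewer cells of a type and less RNA per cell cannot be told apart.

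Every value is a z-score, the distance of a probe's signal from the mean of its array in units of the SD of that array, on a scale (linear or log) that the sources do not state. A difference is therefore in z units and is no fold change, and a z-score of 1 probe cannot be set against that of another as an amount of RNA. Tests came from limma over all 8448 probes, and a probe was called where its Benjamini-Hochberg adjusted p was under 0.05. Group means pool the sexes, while fitted differences weight the sexes equally, so they can differ slightly.

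Mitochondrial ribosomes translate the small set of proteins encoded by mitochondrial DNA, all of which belong to the respiratory chain and ATP synthase. Their protein parts are encoded in the nucleus, made in the cytosol and imported. The TOM complex of the outer membrane receives such precursors, and the TIM complexes of the inner membrane pass them to the matrix or insert them into the membrane. Cortical neurons depend on this supply for the energy that synapses use.

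Of the 35 genes, 19 encode the large ribosomal subunit: Mrpl1, Mrpl3, Mrpl4, Mrpl11, Mrpl16, Mrpl17, Mrpl18, Mrpl20, Mrpl23, Mrpl24, Mrpl27, Mrpl30, Mrpl35, Mrpl36, Mrpl44, Mrpl45, Mrpl50, Mrpl52 and Mrpl55. Another 5 encode the small subunit, where messenger RNA is read: Mrps12, Mrps14, Mrps15, Mrps17 and Mrps35. The outer membrane group held 5 genes, the receptors Tomm20, Tomm22 and Tomm70a and the small subunits Tomm5 and Tomm7. The inner membrane group held 6, namely Timm17b of the channel for matrix proteins, its partners Timm21 and Timm50, the carrier channel Timm22 and its subunit Timm29 (a role known from human cells), and Timm9, a chaperone of the space between the membranes. The 35 genes lie on 18 chromosomes. Mean z-scores spanned -1.07 for Mrpl11 to 1.69 for Mrpl1, and 12 of the 35 genes had a mean above 0.

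Promoter windows, from 250 bases before the transcription start to 50 after it, were held for 31 of the 35 genes in RefSeq (GRCm38.p6). The windows were searched on both strands for short letter strings of factors known to act on genes of mitochondrial biogenesis. The string CCGGAAGT, bound by GABPA (NRF-2), stood in 6 of the 31 windows (19.4%), against 9.39% of 3430 windows of genes on the array and 4% of 27025 windows of all genes. These were Mrpl3, Mrpl18, Mrpl27, Mrpl52, Timm29 and Tomm70a. The YY1 string AAGATGGCG stood in 3 windows (9.68%), those of Mrpl35, Mrpl36 and Timm50, against 3.67% of array genes and 1.49% of all genes. These letters began after the start in Mrpl35 (base 24) and Timm50 (base 12), and 31 bases before it in Mrpl36. The NRF1 core GCATGCGC stood in 1 window (3.23%), that of Mrpl17, against 5.95% of array genes, and the SP1 string GGGGCGGGG in 3 (9.68%), against 22.9%. A match describes letters and is no bound site. A divergent gene started within 1000 bases in 8 of the 31 windows (25.8%), against 20.3% of array genes, and the pairs included Mrps12 with Sars2, a mitochondrial seryl-tRNA synthetase, 147 bases apart. One window with each of the first 2 strings is shown for genes that are described below at the juvenile ages, 5' to 3' on the gene's strand, with the matched letters in capitals.
Mrpl3 (chr9:105053018-105053317, plus strand): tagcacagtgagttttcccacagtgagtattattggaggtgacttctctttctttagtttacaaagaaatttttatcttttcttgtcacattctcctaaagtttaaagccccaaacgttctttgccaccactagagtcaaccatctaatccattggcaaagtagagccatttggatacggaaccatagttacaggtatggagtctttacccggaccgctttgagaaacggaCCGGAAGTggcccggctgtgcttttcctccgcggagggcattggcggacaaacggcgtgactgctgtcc
Timm50 (chr7:28311997-28312296, minus strand): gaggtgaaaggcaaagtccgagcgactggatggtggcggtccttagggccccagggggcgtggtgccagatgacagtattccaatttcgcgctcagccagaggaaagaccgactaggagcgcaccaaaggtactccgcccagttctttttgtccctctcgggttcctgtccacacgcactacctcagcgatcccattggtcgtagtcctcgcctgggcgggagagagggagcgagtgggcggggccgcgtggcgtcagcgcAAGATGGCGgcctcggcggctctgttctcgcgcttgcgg

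Of the variance over all probes, 48.1% lay on 1 principal component, and 94.5% of that component was explained by whether an array number was below 46 (45 arrays) or not (22 arrays). The arrays of female replicate 2 and male replicate 2 at 16 months AL held identical values at 4312 probes and 17 of the 35 genes, with a correlation of 0.99975 where the next pair reached 0.989. They were averaged and counted as 1 sample in every mean and SD and kept apart in the limma fits. A fit with 16 months AL thus counts 1 array more than it has distinct samples, which can make its p-values and intervals too small. The p-values otherwise measure the spread between these arrays. The description of 24 months AL male replicate 2 names the animal of another array, and the title was followed. The correlation of these 2 arrays, numbered 27 and 1, was 0.878. The median correlation of array 27 was 0.945 with its own group and 0.969 with the arrays below 46. These values cannot tell whether the animal is the same, since the 2 arrays stand in different sets of array numbers, described below. Blocks used below are the split at array 46 and the array cycle, 1 of 5 runs through the groups in the order of the array numbers.

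Across the 8 age and diet groups, the means of a gene spanned a median range of 0.21 z units, from 0.08 for Mrpl50, a subunit protein with no bacterial counterpart, to 0.72 for Tomm20. The SD between arrays within a group, which holds the differences between sets of arrays as well as those between mice, was 0.20 for the median gene and 0.21 for the median of all probes. Mrpl50 was the steadiest gene, at 0.16 ± 0.07 at 17-21 days (SD, n = 5), 0.11 ± 0.08 at 16 months AL (SD, n = 9) and 0.08 ± 0.07 at 24 months AL (SD, n = 10), and at 0.14 ± 0.07 at 16 months CR and 0.09 ± 0.21 at 24 months CR (SD, n = 10 and 8).

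None of the 35 genes was called in any of the 16 comparisons of age, diet and sex. Over all probes, 8 were called between the juvenile ages (0.0947%), and the other 15 comparisons gave 0 (0%). With both blocks in the fit, the members called were again 0 of 35 in each comparison, where over all probes 21 were called between the juvenile ages (0.249%) and 92 for 24 against 16 months AL (1.09%). The first steps of the selection in the methods of the study ask for an unadjusted p under 0.05, an average intensity above 0, taken here as the mean z-score, and a z-ratio, the difference over the SD of all differences, of 1.5 or more in either direction. A further analysis of variance in those methods was not applied. Over all arrays, 12 of the 35 genes had a mean z-score above 0. A gene at or below 0 in the compared groups could not be taken, whatever its difference. These steps took 0 of the 35 genes in the 4 comparisons given here, while over all probes they took 55 between the juvenile ages (0.651%), 172 (2.04%) for 24 against 16 months AL, 109 (1.29%) for 24 against 16 months CR and 30 (0.355%) for CR against AL. The precision differed between the comparisons. For CR against AL over 3 ages, the 95% interval reached 0.11 to either side for the median gene. The interval lay within 0.5 z units of 0 for 34 of the 35 genes, the exception being Tomm20. That bound is wide beside the SD within groups, 0.20 for the median gene. At the juvenile ages the intervals of Mrpl55 (-0.67 to -0.14) and Timm21 (0.06 to 0.59) were wider than that of the median gene here.

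**Figure D1:**
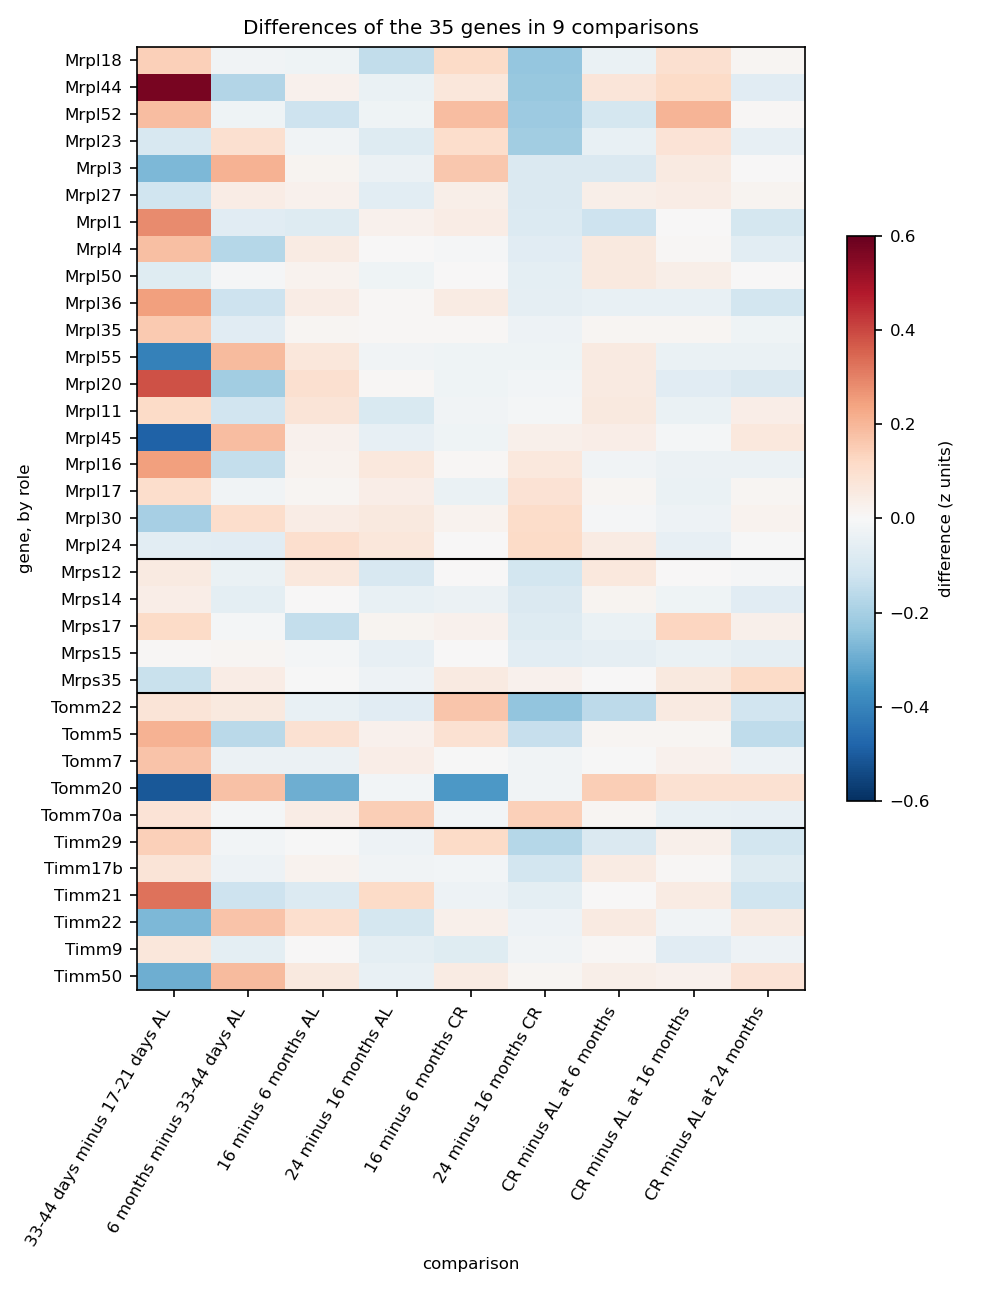
Fitted differences of the 35 genes (rows, grouped by role) in 9 comparisons of age and diet (columns), with colour for the difference in z units. The strongest colours stand in the juvenile column, where differences spanned -0.51 to 0.57, and none of the cells was called.

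The comparison of 33-44 days with 17-21 days AL asked how the cortex differed between adolescence and weaning age. It held the smallest unadjusted p-values of these genes, with 6 of 35 under 0.05, 2 positive and 4 negative, against 1186 of 8448 probes (14%). The median difference was 0.08, or -0.00083 on arrays numbered below 46 alone. On all arrays, 23 differences were positive and 12 negative, and the median of all probes was 0.003. By role, 11 of 19 large subunit, 4 of 5 small subunit, 4 of 5 outer membrane and 4 of 6 inner membrane genes had positive differences. In the same comparison 4 of 5 measured blood genes were negative, with a median of -0.34, and their part in these values was not tested.

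Timm22, which forms the channel that inserts metabolite carriers into the inner membrane, had z-scores of -0.06, -0.03, -0.03, 0.27 and 0.33 at 33-44 days, against 0.24, 0.32, 0.34, 0.47 and 0.48 at 17-21 days. The 3 low arrays at 33-44 days lay below every array at 17-21 days and the other 2 lay within that range. The difference was -0.27 (95% interval -0.44 to -0.10, limma adjusted p = 0.141).

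Timm50, the receptor that takes presequences from the outer membrane, had values of -0.92, -0.79, -0.55, -0.54 and -0.25 at 33-44 days, against -0.51, -0.36, -0.35, -0.21 and -0.17 at 17-21 days. Of the arrays at 33-44 days, only the 1 at -0.25 lay within the range at 17-21 days. The difference was -0.30 (95% interval -0.51 to -0.08, limma adjusted p = 0.244). Timm21, which joins the inner membrane channel to the outer membrane complex, leaned the other way, with -0.68, -0.61, -0.60, -0.18 and -0.15 at 33-44 days, against -0.93, -0.89, -0.77, -0.63 and -0.48 at 17-21 days. Here 2 arrays of the older mice stood clear of the younger group, and the difference was 0.33 (0.06 to 0.59, limma adjusted p = 0.288).

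Mrpl55, a large subunit protein that bacterial ribosomes lack, stood at -1.0, -0.87, -0.40, -0.32 and -0.08 at 33-44 days, against -0.32, -0.18, -0.15, -0.13 and 0.03 at 17-21 days. The values of -1.0 and -0.87 came from the 2 arrays of this age that are numbered 46 and above. The difference was -0.41 (95% interval -0.67 to -0.14, limma adjusted p = 0.17). Mrpl3, a protein near the catalytic core of the large subunit, stood at -1.03, -0.99, -0.86, -0.83 and -0.75 at 33-44 days, against -0.90, -0.66, -0.62, -0.51 and -0.47 at 17-21 days. Its values of -1.03 and -0.99 came from the same 2 arrays numbered 46 and above. Only 1 array at 17-21 days lay inside the older group, and the difference was -0.27 (-0.49 to -0.05, limma adjusted p = 0.289). Mrpl4, another large subunit protein, had -0.34, -0.15, -0.03, 0.02 and 0.41 at 33-44 days, against -0.29, -0.25, -0.24, -0.19 and -0.11 at 17-21 days, so the older group was the wider one and spanned the whole younger group. Its difference was 0.18 (0.01 to 0.35, limma adjusted p = 0.335).

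**Figure D2:**
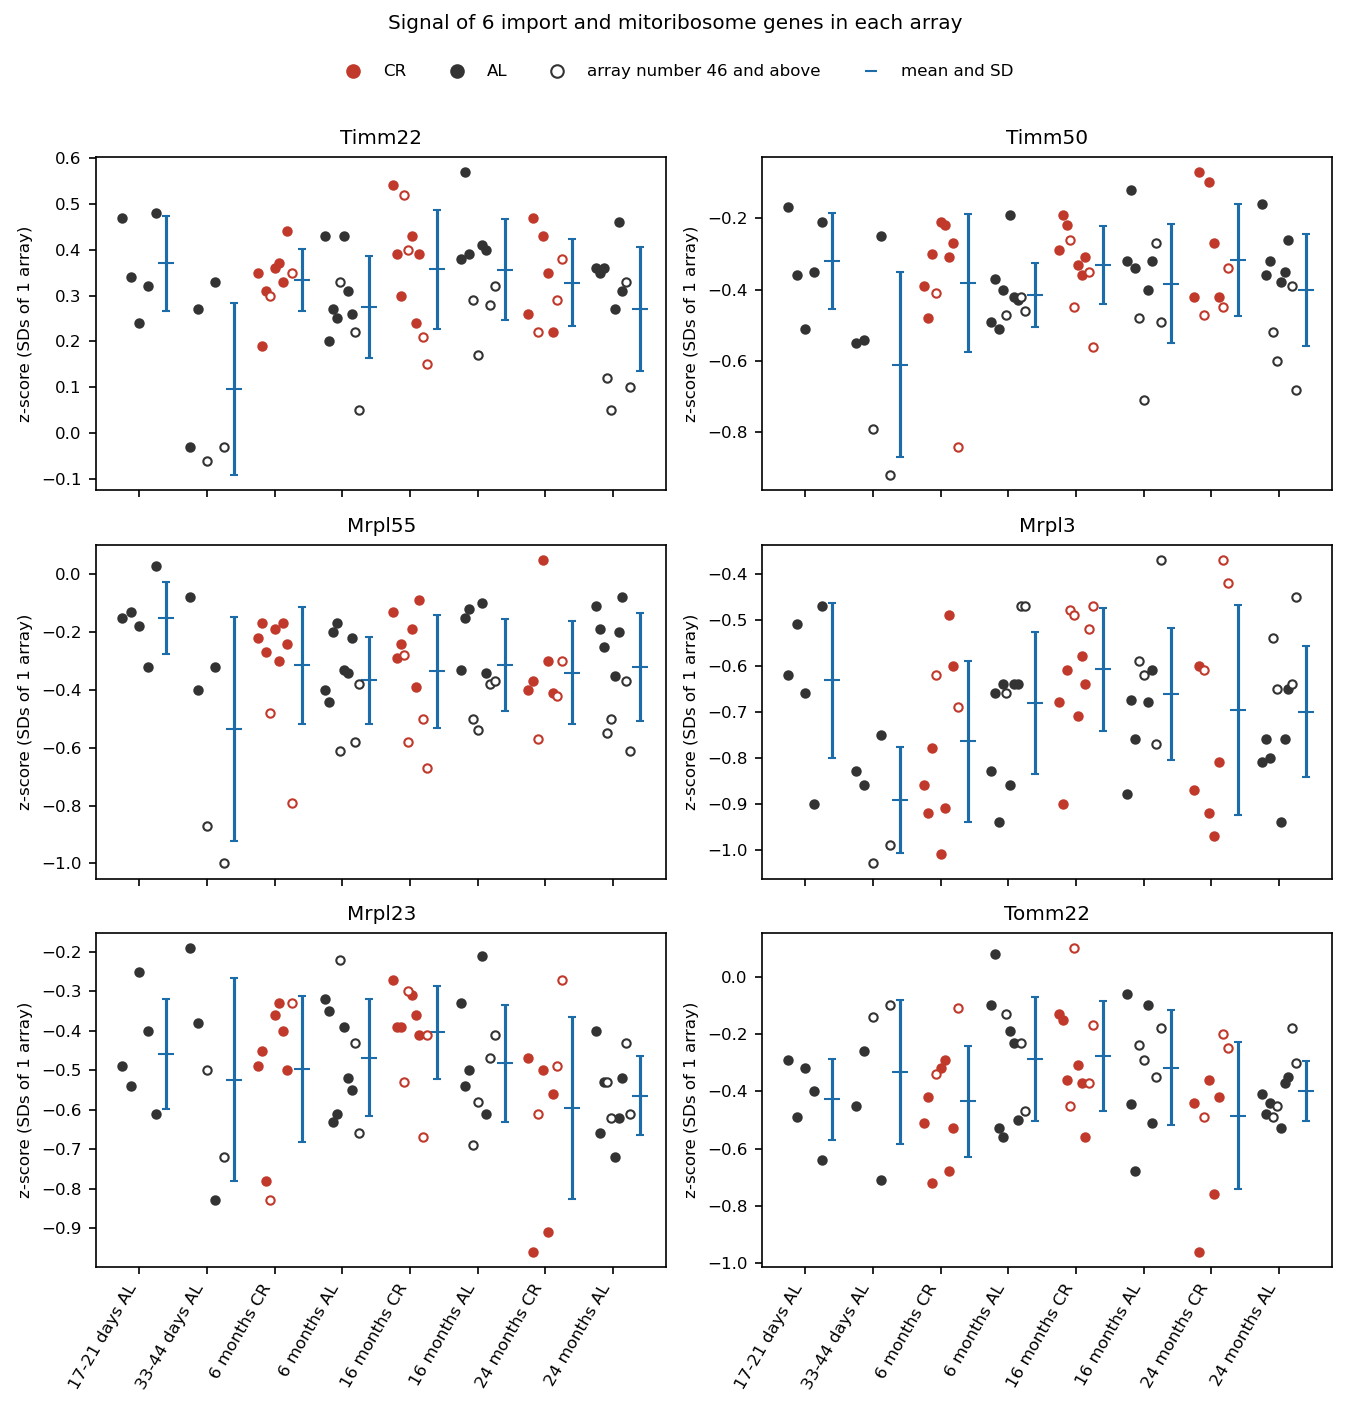
z-score of 6 genes (vertical axes, SDs of 1 array) in each array of the 8 age and diet groups (horizontal axis), with open points for arrays numbered 46 and above and bars for the mean and SD. The 2 open points of Mrpl55 at 33-44 days lie at -1.0 and -0.87, apart from the other 3 arrays of that age.

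These differences depended on which arrays the juvenile groups held. Of the arrays numbered 46 and above, 2 of 5 fell at 33-44 days and 0 of 5 at 17-21 days. Without 33-44 days AL female replicate 2, 1 of these 2, the difference of Timm50 was -0.13 and that of Mrpl55 -0.24. Without 33-44 days AL female replicate 1 the differences of Timm22, Mrpl55 and Timm50 became -0.36, -0.58 and -0.46, and these 3 genes were called (limma adjusted p = 0.0174, 0.0163 and 0.017). Leaving out 33-44 days AL male replicate 2 gave 2 calls, Timm22 at -0.32 and Mrpl4 at 0.27 (limma adjusted p = 0.0287 and 0.0442), and without male replicate 1 the difference of Mrpl4 was 0.09. Calls over all probes were not counted in the fits that left out an array. These calls therefore cannot be set against a share of all probes and are no result about these genes in particular. With array cycle and the split at array 46 as blocks, the difference of Mrpl3 was -0.32 and its limma adjusted p was 0.0739, the smallest of the 35 genes, of which 6 had an unadjusted p under 0.05, against 815 of 8448 probes (9.65%).

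Probes that lie close together on the filter, in a layout of 22 columns, 24 rows and 16 blocks inferred from the order of the probes, deviated together, with a correlation of residuals of 0.375 between neighbours in a row and 0.411 between probes 1 row apart. After the local median of neighbouring deviations was subtracted and the blocks were fitted, the correlations were 0.03 and 0.12. The difference of Mrpl55, which was -0.25 with the blocks alone, then became 0.01, that of Timm50 -0.05, that of Mrpl3 -0.04, that of Timm22 -0.11, that of Timm21 0.08 and that of Mrpl4 0.15. With the blocks alone, these 5 were -0.18, -0.32, -0.22, 0.17 and 0.18. With the correction and blocks, 0 of the 35 genes had an unadjusted p under 0.05, against 364 of all probes (4.31%), and 0 were called by limma.

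**Figure D3:**
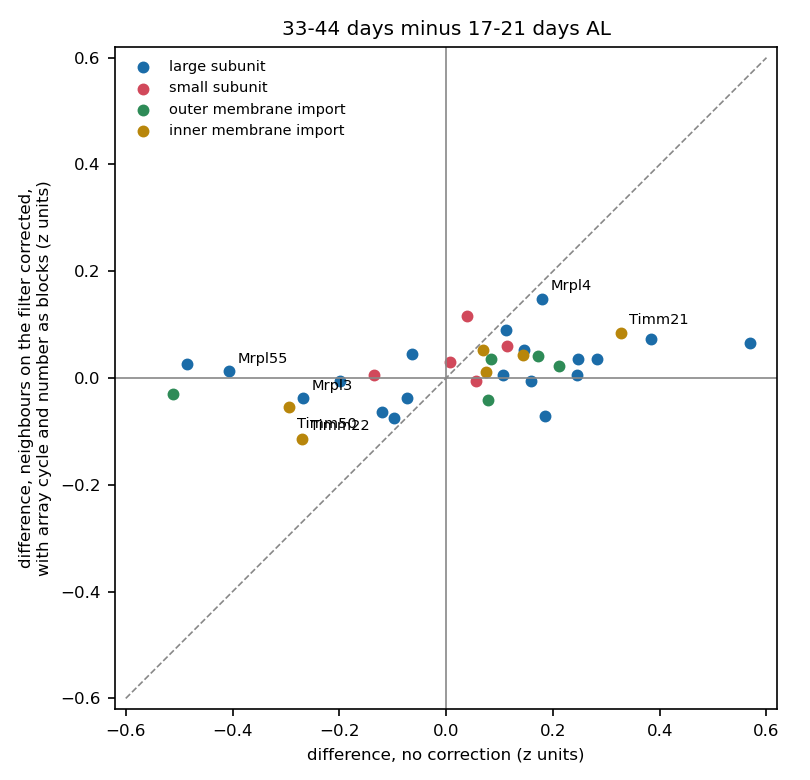
Difference of each of the 35 genes between 33-44 days and 17-21 days AL after correction for neighbours on the filter with both blocks (vertical axis, z units) against the uncorrected difference (horizontal axis, z units), with colours for the roles and a dashed line where both are equal. Most points lie near 0 on the vertical axis, with Mrpl55 at 0.01 after the correction and blocks, -0.25 with the blocks alone and -0.41 with neither, while Mrpl4 is at 0.15.

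The comparison of 6 months with 33-44 days AL shares the arrays at 33-44 days with the one above. Unadjusted p was under 0.05 for 4 of 35 genes, 3 positive and 1 negative, against 449 of 8448 probes (5.31%), and the median difference was -0.02. The values were 0.17 for Timm22, -0.17 for Mrpl4, 0.21 for Mrpl3, 0.19 for Timm50, 0.19 for Mrpl55 and -0.11 for Mrpl11, with limma adjusted p from 0.875 to 0.987. Single arrays carried much of these values: without 33-44 days AL female replicate 2, Timm50, Mrpl55 and Timm22 had 0.02, 0.02 and 0.08, and without male replicate 1 Mrpl11 and Mrpl4 had -0.05 and -0.07. At 6 months AL the means were 0.28 ± 0.11 for Timm22 and -0.68 ± 0.16 for Mrpl3 (SD, n = 10 each), against 0.10 ± 0.19 and -0.89 ± 0.12 at 33-44 days (SD, n = 5 each). Between 6 months and 17-21 days AL, 0 of 35 genes had an unadjusted p under 0.05, against 292 of 8448 probes (3.46%). The differences nearest to the threshold were -0.22 for Mrpl55, 0.20 for Timm21, 0.13 for Timm29, 0.39 for Mrpl44, -0.10 for Timm22 and -0.08 for Mrpl50, each with a limma adjusted p of 0.815.

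The adult ages on the AL diet give the interval that the study used to define aging-associated genes, 16 to 24 months. Here the 35 genes had a median difference of -0.02, with 14 positive and 21 negative, and 0 had an unadjusted p under 0.05, against 555 of 8448 probes (6.57%). The smallest p was that of Timm22, whose z-score had a lowest, median and highest value of 0.05, 0.32 and 0.46 at 24 months AL, against 0.17, 0.38 and 0.57 at 16 months AL. The ranges overlapped over most of their length, with a difference of -0.11 (95% interval -0.22 to 0.01, limma adjusted p = 0.807). Tomm70a, the receptor for carrier precursors on the outer membrane, spanned -0.39 to 0.44 (median -0.08) at 24 months AL, against -0.57 to 0.33 (median -0.20) at 16 months AL. Its difference of 0.15 (-0.10 to 0.40) was the largest positive one, and it was 0.18 after the filter correction.

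Other large subunit genes in this interval had differences of -0.15 for Mrpl18, -0.09 for Mrpl11, -0.08 for Mrpl23 and 0.07 for Mrpl24. In the small subunit the extremes were Mrps12, a protein of the decoding site, at -0.10 and Mrps17 at 0.02, with 0.11 for the other probe of Mrps17. Without 24 months AL female replicate 3, which stood at -1.82, the difference of Mrps12 was -0.01. Among the import genes Timm21 had a difference of 0.11 (-0.02 after the filter correction) and Tomm22 one of -0.07 (0.03 after it). With array cycle and the split at array 46 as blocks, 3 of 35 genes had an unadjusted p under 0.05, against 1343 of 8448 probes (15.9%), and with the filter correction 2 of 35 had one, against 1262 (14.9%).

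Mrpl24, a protein at the mouth of the exit tunnel, was the 1 gene with an unadjusted p under 0.05 between 24 and 6 months AL, where 244 of 8448 probes (2.89%) had one. Its lowest, median and highest z-scores were -0.14, -0.09 and 0.03 at 24 months AL, against -0.52, -0.20 and 0.03 at 6 months AL. The older arrays were grouped tightly at the top of the younger range, and the difference was 0.17 (95% interval 0.01 to 0.33, limma adjusted p = 1, and 0.316 with the blocks). In the CR mice the same comparison gave 0.12 (-0.06 to 0.29) for Mrpl24, and -0.02 after the filter correction, which left 0.09 in the AL mice. Further differences between 24 and 6 months AL were -0.17 for Mrpl18, 0.19 for Tomm70a, -0.10 for Mrpl23, -0.15 for Mrpl52, -0.11 for Tomm22, -0.03 for Mrps35, -0.31 for Tomm20 (-0.003 with its other probe), 0.03 for Timm21 and -0.06 for Timm9. Mrps17 had -0.13 with its used probe and 0.18 with its other probe, so the probes of this gene leaned in opposite directions.

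Between 16 and 6 months AL, 0 of 35 genes had an unadjusted p under 0.05 (257 of 8448 probes, 3.04%), and 23 of 35 differences were positive with a median of 0.02. Timm22 had 0.10, Mrps17 -0.14 (0.07 with its other probe), Mrpl24 0.10, Mrpl52 -0.13, Mrpl11 0.08 and Timm21 -0.08. The extremes of other roles were Mrps12 at 0.06, Tomm5, a small subunit of the outer membrane channel, at 0.09 and Tomm20 at -0.29 (0.06 with its other probe). Without the near-identical arrays the difference of Mrpl52 was 0.0055. The intervals were wide relative to these values, at 0.18 to either side for the median gene.

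In the CR mice, the fitted differences of the 35 genes leaned downward at 24 months relative to 16 months. Of the differences, 27 of 35 were negative with a median of -0.06, where 4461 of 8448 probes were negative with a median of -0.01, and unadjusted p was under 0.05 for 4 genes, all negative, against 351 of all probes (4.15%). By role, 14 of 19 large subunit, 4 of 5 small subunit, 4 of 5 outer membrane and 5 of 6 inner membrane genes were negative. The genes share the same arrays, so a count of genes is no count of mice. The median of the 35 genes on an array ran from -0.26 to -0.12 at 16 months CR and from -0.27 to -0.11 at 24 months CR. Their mean on an array was 0.006 ± 0.03 and -0.05 ± 0.06 in these groups (SD, n = 10 and 8). The 45 measured genes of the respiratory chain had a median of 0.01, with 22 negative, and the 54 of the cytosolic ribosome one of -0.03, with 37 negative.

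Mrpl23, a protein of the exit tunnel, had a lowest, median and highest value of -0.96, -0.53 and -0.27 at 24 months CR, against -0.67, -0.39 and -0.27 at 16 months CR. Male replicate 2 at -0.96 and female replicate 2 at -0.91 lay below every array at 16 months and the other 6 lay within that range. The difference was -0.21 (95% interval -0.36 to -0.06, limma adjusted p = 0.999), and without male replicate 2 it was -0.14.

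Tomm22, the central receptor of the outer membrane complex, had -0.96, -0.43 and -0.20 at 24 months CR, against -0.56, -0.34 and 0.10 at 16 months CR. The same pair of arrays was lowest, at -0.96 and -0.76. The difference was -0.24 (-0.43 to -0.04, limma adjusted p = 0.999), or -0.15 without male replicate 2.

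Timm29 stood at 0.54, 1.01 and 1.20 at 24 months CR, against 0.97, 1.09 and 1.37 at 16 months CR, with a difference of -0.17 (-0.32 to -0.03). Mrpl18, which is also known to bind 5S ribosomal RNA, stood at -0.75, -0.18 and 0.10, against -0.16, 0.08 and 0.22, with a difference of -0.23 (-0.44 to -0.03). Female replicate 1 was the lowest array of 24 months CR for both genes, at 0.54 and -0.75, and without it the differences were -0.12 and -0.18. Mrpl52 and Timm17b followed with -0.22 and -0.11, and all 6 genes had a limma adjusted p of 0.999.

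After correction for neighbours on the filter, 27 of 35 differences were again negative, with a median of -0.03, and 3 genes had an unadjusted p under 0.05, against 733 of 8448 probes (8.68%). With this correction, which includes the blocks, the differences of Mrpl23, Tomm22, Timm29, Mrpl18, Mrpl52 and Timm17b became -0.02, -0.08, -0.07, -0.06, -0.10 and -0.08. With the blocks alone they were -0.22, -0.25, -0.17, -0.24, -0.21 and -0.11, and 7 genes had an unadjusted p under 0.05, against 1086 probes (12.9%). The probes of Tomm22 and Mrpl18 lie 2 rows and 2 columns apart on the filter, within the window of the correction. Without the correction, the median over arrays numbered below 46 alone was -0.07.

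**Figure D4:**
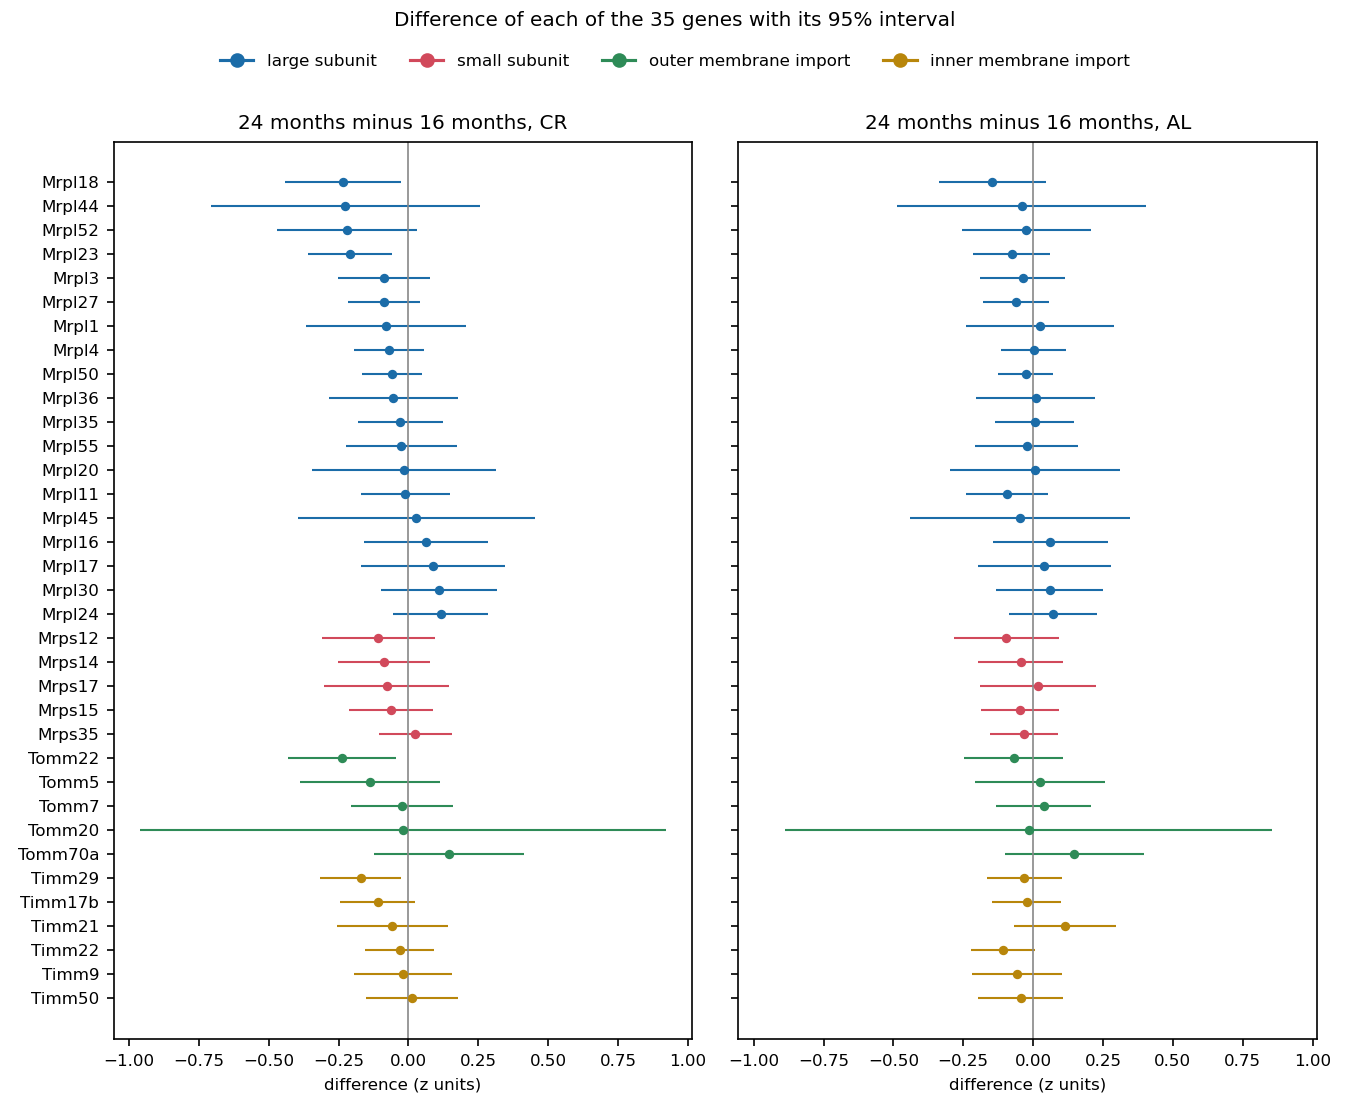
Fitted difference of each of the 35 genes (rows, coloured by role) between 24 and 16 months in CR mice (left) and AL mice (right), in z units, with lines for the 95% interval. In CR mice 27 of 35 points lie left of 0 and in AL mice 21, and the intervals of Mrpl23, Tomm22, Timm29 and Mrpl18 exclude 0 in CR mice before adjustment.

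Whether this step differed between the diets was tested directly. For the change from 16 to 24 months in CR minus that in AL mice, the median was -0.03 with 25 of 35 genes negative, and 0 genes had an unadjusted p under 0.05, against 75 of 8448 probes (0.888%). The values were -0.14 for Timm29, -0.13 for Mrpl23, -0.17 for Tomm22, -0.17 for Timm21, -0.20 for Mrpl52 and -0.16 for Tomm5, and the interval of Mrpl52 ran from -0.54 to 0.14. Without 24 months CR male replicate 2 the values of Mrpl23, Tomm22, Timm21 and Tomm5 were -0.06, -0.08, -0.06 and -0.10. That of Timm29 was -0.09 without 24 months CR female replicate 1, and that of Mrpl52 -0.12 without 16 months AL female replicate 2. The change from 6 to 24 months gave 0 of 35 genes as well, against 90 probes (1.07%), with -0.13 for Mrpl4, -0.13 for Timm17b, 0.11 for Mrps35, -0.16 for Tomm5, -0.12 for Timm21 and 0.09 for Mrpl3.

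The earlier CR interval, 16 against 6 months, shares the arrays at 16 months CR with the later one. Its differences with the smallest p were 0.16 for Tomm22, 0.11 for Timm29, 0.18 for Mrpl52, 0.11 for Mrpl23 and 0.11 for Mrpl18, with 0.16 for Mrpl3. One gene, Mrpl3, had an unadjusted p under 0.05, against 197 of 8448 probes (2.33%). Between 24 and 6 months CR, 0 genes had one, against 289 probes (3.42%), and 26 of 35 differences were negative with a median of -0.05, where 4378 of 8448 probes were negative. Without 24 months CR male replicate 2 that median was -0.0005. The values were -0.13 for Timm17b, -0.12 for Mrps14, -0.10 for Mrpl23, 0.12 for Mrpl24, 0.13 for Mrpl30 and 0.08 for Mrps35. Without 24 months CR male replicate 2, those of Mrps14, Mrpl23, Mrpl24 and Mrps35 were -0.07, -0.03, 0.07 and 0.02. That of Mrpl30 was 0.09 without 6 months CR female replicate 5.

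Caloric restriction itself was set against AL feeding at 6, 16 and 24 months. At 24 months the male mice differed in age too, with 673 days for all CR males and 714 to 743 days for the AL males, so diet and this gap in age cannot be told apart there. Over the 3 ages the median difference of CR minus AL was -0.003, with 15 positive and 20 negative, and 0 of 35 genes had an unadjusted p under 0.05, against 60 of 8448 probes (0.71%). The smallest p was that of Mrps35, a small subunit protein specific to mitochondria, at -0.33 ± 0.11, -0.28 ± 0.08 and -0.25 ± 0.15 in CR mice of 6, 16 and 24 months (SD, n = 9, 10 and 8), against -0.33 ± 0.13, -0.33 ± 0.12 and -0.37 ± 0.14 in AL mice (SD, n = 10, 9 and 10). The means differed by less than their SD at each age, with a difference of 0.06 over the ages (95% interval -0.01 to 0.13, limma adjusted p = 1). Timm29 had -0.06, Tomm22 -0.07, Mrps15 -0.05, Mrpl50 0.03 and Mrpl36 -0.07. The extremes by role were Mrpl44 at 0.04, Mrpl1 at -0.07, Tomm20 at 0.11 (0.007 with its other probe) and Timm50 at 0.05.

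At the single ages, 0 of 35 genes had an unadjusted p under 0.05 at 6 months (39 of 8448 probes, 0.462%), at 16 months (87 probes, 1.03%) and at 24 months (88 probes, 1.04%). At 6 months the values were -0.16 for Tomm22, -0.08 for Timm29, 0.06 for Mrpl50, -0.09 for Mrpl3, 0.06 for Mrpl4 and 0.05 for Timm22. At 16 months they were 0.20 for Mrpl52, 0.13 for Mrps17 (-0.10 for its other probe), 0.08 for Mrpl23, 0.10 for Mrpl18, 0.06 for Mrps35 and -0.07 for Timm9. The value of Mrpl52 had an interval of -0.03 to 0.43.

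At 24 months, where 14 of 35 differences were positive, Mrps35 spanned -0.41 to 0.01 (median -0.30) in CR mice, against -0.59 to -0.11 (median -0.34) in AL mice, with a difference of 0.11 (-0.02 to 0.25). Timm29 had -0.11, Timm21 -0.12, Tomm5 -0.15, Tomm22 -0.11 and Timm17b -0.08. Without 24 months CR male replicate 2 the values of Timm21, Tomm22, Tomm5, Mrps35 and Timm50 were -0.009, -0.03, -0.09, 0.05 and 0.02, and without 24 months CR female replicate 1 that of Timm29 was -0.06. The extremes by role were Mrpl45 at 0.06 (0.07 with its other probe), Mrpl36 at -0.11, Mrps14 at -0.07, Timm50 at 0.08 and Tomm20 at 0.09 (-0.0007 with its other probe). All had a limma adjusted p of 1.

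Males and females, compared over the 6 adult age and diet groups, differed at a median of -0.001 (male minus female), and 0 of 35 genes had an unadjusted p under 0.05, against 82 of 8448 probes (0.971%). The smallest p were those of Mrpl16 at 0.08, Mrpl3 at -0.06, Mrpl23 at -0.05, Tomm5 at -0.07, Mrpl4 at 0.03 and Mrpl27 at 0.03. The median interval reached 0.11 to either side.

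The largest movements of these genes followed the array numbers. Tomm20, the receptor that recognises presequences, was measured by 2 probes, and the used one (probe 15218) had an SD of 1.01 within groups, the widest of all members. On arrays 1 to 22 it lay between 0.13 and 0.91, on arrays 23 to 45 between -0.74 and 0.03, and on arrays 46 to 67 between -1.91 and -1.20. These ranges do not overlap, and it was the only 1 of 8448 probes (0.0118%) for which the 3 sets of arrays were separate, a property that was looked for after its values were seen. The other Tomm20 probe (11253) lay between -1.51 and -0.68, -1.44 and -0.84, and -1.34 and -0.70 on the same sets, which overlap widely.

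The 3 sets accounted for 96.3% of the variance of the used Tomm20 probe and for a median of 38.4% over the 35 genes. Their share was not computed over all probes. The split at array 46 alone accounted for a median of 30.6% over the 35 genes, against 29.2% over all probes. Mrpl44, a large subunit protein with a ribonuclease III fold, had 91.1%, with medians of -0.84, -1.53 and -0.40 on arrays 1 to 22, 23 to 45 and 46 to 67. Its mean was -0.75 ± 0.48 at 33-44 days, against -1.29 ± 0.42 at 17-21 days (SD, n = 5 each), and the difference of 0.57, the largest positive one at the juvenile ages, became 0.11 with the sets as a block. The largest negative juvenile differences were -0.51 for Tomm20 and -0.49 for Mrpl45, against -0.03 and -0.30 with their other probes, and they became 0.07 and -0.16 with the block. Mrpl45, which ties the ribosome to the inner membrane, moved alike in both probes. The used one (13288) had medians of 1.67, 1.70 and 0.96 and the other (13366) 1.18, 1.11 and 0.57 on the 3 sets. Mrps17 stood at medians of 0.29, -0.10 and -0.08 with probe 12588 and at -0.77, -0.70 and -0.55 with probe 13408.

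**Figure D5:**
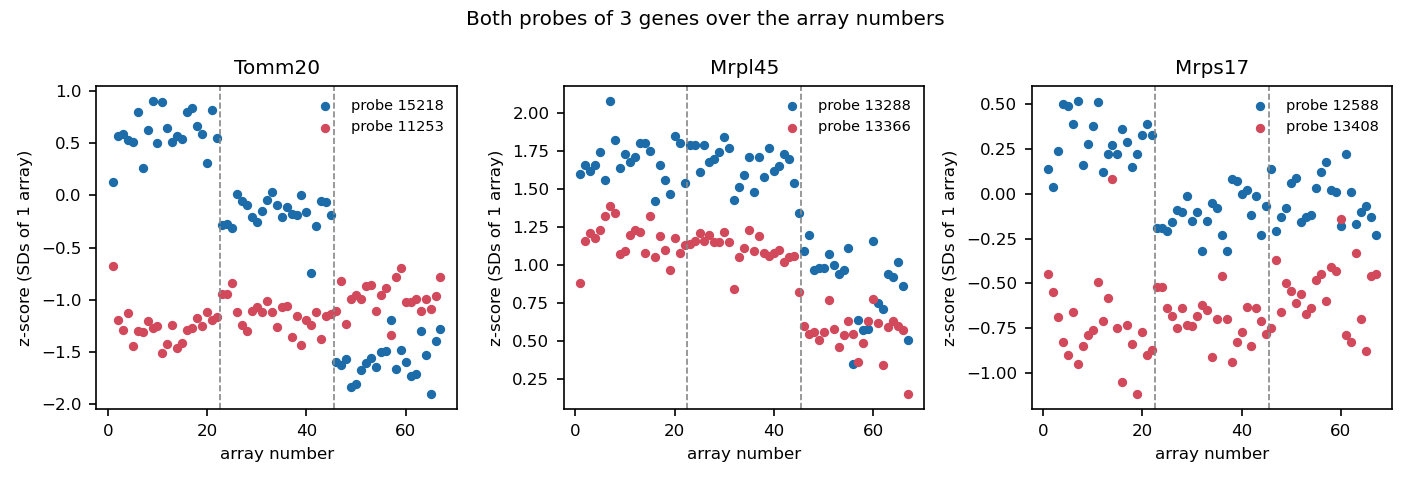
z-score (vertical axes, SDs of 1 array) of both probes of Tomm20, Mrpl45 and Mrps17 against the array number (horizontal axes), with the used probe in blue, the other in red and dashed lines after arrays 22 and 45. The used Tomm20 probe steps down at both lines, to between -1.91 and -1.20 on the last set, while its other probe keeps to between -1.51 and -0.68.

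The arrays 1 to 22, 23 to 45 and 46 to 67 held 2, 1 and 2 of the arrays at 33-44 days, and 2, 3 and 0 of those at 17-21 days. At 24 months they held 2, 3 and 3 CR arrays and 2, 4 and 4 AL arrays, and at 16 months 4, 2 and 4 CR arrays and 2, 4 and 4 AL arrays, so the AL groups of 24 and 16 months were alike in this respect. The labels do not say that the sets are batches. With the sets as a block, a setting added after the values were seen, 0 of the 35 genes were called in any comparison, where over all probes 41 were called between the juvenile ages (0.485%) and 21 for 24 against 16 months AL (0.249%). The smallest limma adjusted p of a member was 0.0655, for Mrpl3 at the juvenile ages (difference -0.31). For 24 against 16 months CR the median was -0.04 with 24 of 35 negative, and Mrpl23, Tomm22 and Timm29 had -0.18, -0.19 and -0.18.

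A further 34 genes of the same pathway, listed by name, were measured, and 0 of them were called in any comparison with or without the blocks. For 24 against 16 months CR their median was -0.01 (15 positive, 19 negative), and for 33-44 days against 17-21 days AL it was -0.01 (16 positive, 18 negative). Among 8 translation factors and synthetases, the smallest p belonged to Gars, a glycyl-tRNA synthetase (0.25), and Mtif2, an initiation factor (-0.19), at the juvenile ages, and to Lrpprc, which stabilises mitochondrial messenger RNA (-0.16), and Rars2 (-0.09) for 24 against 16 months AL. Among 10 assembly genes these were Noa1 (-0.42) and Tfb1m (-0.18) at the juvenile ages and Nsun4, a methyltransferase of ribosomal RNA (-0.11), and Eral1 (-0.09) for 24 against 16 months AL. In the list of 11 motor, sorting and processing genes they were Gfer, an oxidase of the import relay (-0.19), and Hspa9, the motor chaperone (0.32), at the juvenile ages, and Mtx1, an outer membrane metaxin (0.15), and Dnajc15 (0.13) for 24 against 16 months AL. The 5 genes of mitochondrial DNA expression were led by Mterf1a (0.44) and Pprc1 (0.48) at the juvenile ages and by Ssbp1 (-0.09) and Mterf1a (0.10) for 24 against 16 months AL. Of the ribosomal proteins of mitochondria that carry other symbols, 0 of 7 listed were measured.

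For 24 against 16 months CR the 2 genes with the smallest p in each of these lists were Mtif2 (0.14) and Rars2 (-0.10), Ngrn (-0.17) and Tfb1m (-0.13), Mtx1 (0.17) and Oxa1l, the insertase of the inner membrane (-0.13), and Ssbp1 (-0.08) and Pprc1 (0.08). The limma adjusted p was 0.999 for each of them.

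Markers of other cell types were few among the named probes. At the juvenile ages 1 of 5 blood genes was called, Hbb-y, an embryonic globin (-0.42, limma adjusted p = 0.0265), and the 5 blood genes had a median of -0.34. Of 3 neuronal, 4 astrocyte, 2 oligodendrocyte, 3 microglia and 5 choroid plexus and meninges genes, 0 were called in any comparison, and 0 of 8 endothelial genes were measured. The 2 genes with the smallest p at the juvenile ages were Gap43 (0.14) and Uchl1 (0.23) for neurons, Clu (-0.30) and Slc1a3 (-0.18) for astrocytes, Gpr37 (-0.35) and Car2 (0.14) for oligodendrocytes, C1qc (-0.19) and C1qa (0.17) for microglia, and Dcn (0.43) and Col1a1 (-0.22) for meninges. Over the whole lists, 2 of 3 neuronal and 2 of 4 astrocyte genes were positive at these ages. So were 1 of 2 oligodendrocyte, 1 of 3 microglia and 2 of 5 meningeal genes. For 24 against 16 months CR, 3 of 3 neuronal genes were negative with a median of -0.07, led by Nefl, a neurofilament subunit (-0.19), and 5 of 5 meningeal genes positive with a median of 0.04. The AL mice had the same directions in this interval. There 3 of 3 neuronal genes were negative with a median of -0.066, and 5 of 5 meningeal genes positive with a median of 0.045. The part of cell composition in the values of the 35 genes was not tested.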

How the data were processed

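The study measured mouse cerebral cortex on 67 arrays, each part B of a mouse 17K cDNA filter. The labels name 33P as the isotope. The authors extracted spot signals with ArrayPro and deposited a score per probe and array, the z-score, with each array centred on 0 with an SD of 1. Whether logarithms were taken first, and to which base, and how background was handled is not given in the sources at hand, which limits a z-score to a relative measure. One missing value was dropped from its probe's fit.

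Differences were fitted with limma 3.58.1 in R 4.3.3 over all 8448 probes, with 1 mean per age, diet and sex, equal weight for the sexes, moderated variances and Benjamini-Hochberg adjustment per comparison. The script was tested on simulated data. Gene names came from the platform annotation: 4875 probes had 1 symbol, 224 several and 3349 none. The text names, in each of 16 comparisons, the 6 genes with the smallest p, the other probes of those genes, the genes with the largest positive and negative difference in a role for the adult AL ages and for CR against AL over the ages and at 24 months, and for other lists the 2 genes with the smallest p. Mrpl50, Mrpl44 and both probes of the array-set account were chosen after their values were seen. The members and lists were chosen with earlier results of these data known.

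Replicate numbers only name mice, and nothing pairs mice across groups. Array numbers, as the labels give them, served as blocks: 5 cycles of the numbers and a split at number 46. The blocks of 3 array-number sets were added after the data were seen. The filter correction subtracted, per array, the median deviation of up to 24 neighbours within 2 rows and columns of the inferred layout. Other alternatives were quantile normalization, median centring, a filter on mean z above 0, fits on the compared groups only, robust and trended variances, array weights, averaged probes, treatments of the near-identical arrays, arrays on either side of number 46 and leaving out each array. The number of arrays limits the precision.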

Additional observations from a re-analysis of the deposited data

Results flagged for a closer look

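In each age and diet group, of 5 to 10 arrays, the highest and lowest z-score of each gene were compared with the rest by the gap to the nearest array over the range of the group (Dixon's criterion at 95%). Chance alone gives about 1 such array in 20 groups of values, and 14 of 280 (5%) were found here, on 13 arrays and in 10 genes.

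In the large subunit, Mrpl18 was -0.44 in 6 months CR male replicate 3, where the nearest array was -0.13. Mrpl27 was 1.40 in 16 months CR male replicate 1 (nearest 1.11), Mrpl35 was -1.12 in 6 months AL female replicate 2 (nearest -0.63) and Mrpl50 was 0.25 in 24 months AL female replicate 5 (nearest 0.14). Mrpl55 stood out low in 6 months CR female replicate 5, at -0.79 (nearest -0.48), and high in 24 months CR female replicate 1, at 0.05 (nearest -0.30).

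In the small subunit, Mrps12 was -1.82 in 24 months AL female replicate 3 (nearest -1.12). Mrps14 was -0.69 in 33-44 days AL female replicate 1 (nearest -0.20) and -0.61 in 6 months CR female replicate 4 (nearest -0.38), and Mrps17 was 0.51 in 24 months CR male replicate 1 (nearest 0.12).

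Among the import genes, Timm50 was -0.19 in 6 months AL female replicate 1 (nearest -0.37) and -0.84 in 6 months CR female replicate 5 (nearest -0.48), the same array that was low for Mrpl55. Timm9 was -0.29 in 17-21 days AL male replicate 1 (nearest -0.54) and 0.23 in 6 months CR female replicate 3 (nearest -0.31).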

How the results depend on the processing

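Over 18 settings other than leaving out an array, 0 of the 35 genes were called in any comparison. Among the differences given for named genes, the smallest limma adjusted p was 0.0596. The median for 24 against 16 months CR stayed between -0.0708 and -0.0342, and between -0.077 and -0.0435 when 1 array was left out. For 24 against 6 months CR, leaving out 1 array gave -0.068 to -0.0005, the end near 0 without 24 months CR male replicate 2. The juvenile median (33-44 minus 17-21 days) was -0.00083 on arrays below 46 alone. Leaving out 1 array, it ranged from 0.01 (without 33-44 days AL female replicate 2) to 0.14 (without female replicate 1), and the genes called from 0 to 3, with 3 without female replicate 1 and 2 without male replicate 2, where calls over all probes were not counted. For 6 months against 33-44 days AL the median ranged from -0.0943 to 0.018, both ends without one of those females. Without 24 months CR male replicate 2, the differences of Mrpl23 and Tomm22 against 16 months CR were -0.14 and -0.15.

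Of the differences given for named genes, 0 passed the threshold in these 18 settings, and 37 values had the opposite direction. The filter correction with both blocks gave 0.0134 for Mrpl55 between the juvenile ages, and -0.0318 for Mrpl55 at 6 months against 33-44 days (-0.0196 on arrays below 46). It gave -0.00983 for Mrpl44 at 6 months against 17-21 days, and -0.0219 for Timm21 and 0.0296 for Tomm22 at 24 against 16 months AL. In CR mice it gave -0.0317 for Mrpl18 and -0.00683 for Mrpl23 at 16 against 6 months, and -0.0244 for Mrpl24 at 24 against 6 months. For CR against AL it gave -0.0216 for Mrpl23 at 16 months, and -0.0196 for Timm50 and -0.00215 for Tomm20 at 24 months. For Mrpl23 it also gave 0.0106 for the diet difference of the change after 16 months, and 0.0122 for the sexes. Timm21 at 24 against 6 months AL was -0.0424 with it, -0.00073 with the split at 46, -0.00132 with cycle and split, -0.0279 on arrays below 46 and -0.011 with array weights, which also gave 0.00726 for Timm9. Without the near-identical arrays, Mrpl52 was 0.0055 at 16 against 6 months AL, Mrps17 -0.023 at 24 against 16 months AL and Mrpl44 -0.0244 for CR against AL. Averaging that pair as a male gave -0.007 for Mrps17, and arrays from 46 on gave -0.0275. Averaged probes gave 0.0265 for Mrps17 at 24 against 6 months AL. The 3 array sets as a block gave Tomm20 0.00782 at 16 against 6 months AL, -0.0239 for CR against AL and -0.00994 at 24 months. At 24 months, CR against AL, Tomm20 was also -0.0655 with cycle, -0.0343 with cycle and split and -0.00146 with weights, and Mrpl45 was -0.00502 with cycle, -0.0075 on arrays below 46 and -0.0766 with weights. Arrays from 46 on gave 0.118 for Timm9 for CR against AL at 16 months, and arrays below 46 gave -0.00028 for Mrpl27 between the sexes. The cause of these changes was not tested.

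Leaving out 1 array turned 4 named values, each with both signs in its range. Mrps17 at 24 against 16 months AL ranged from -0.017 to 0.0643, with a negative value without 5 of 20 arrays. Timm21 at 24 against 6 months AL ranged from -0.007 to 0.0648, negative only without 24 months AL male replicate 5. For CR against AL at 24 months, Mrpl45 ranged from -0.0408 to 0.176 and Tomm20 from -0.24 to 0.446, whose ends were without CR male replicate 1 and CR male replicate 3. No paired analysis was possible because the replicate numbers follow the order of accession and the labels pair no mice. The array cycle, with which most replicate numbers coincide, was fitted as a block instead. Arrays from 46 on were fitted alone only where each sex of each group had 2 or more of them, which held for 24 against 16 months AL and for CR against AL at 16 months.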
